A study of Homo sapiens with 8 samples.

Results

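The genes described here are 48 components of the Wnt signaling pathway: 14 Wnt ligands, 14 receptors and co-receptors, 17 intracellular transducers and 3 secreted inhibitors. They were chosen by name, with earlier results of these data known. Every peak whose nearest transcription start site (TSS) belonged to one of them was taken from 6 ChIP-seq peak lists. Of the 48 genes, 33 had at least 1 listed peak, out of 10699 genes named in any list, and together they held 100 peaks. The study asked how the C-clamp, an auxiliary DNA-binding domain of TCF1, contributes to where TCF1 binds in the genome. DLD-1 cells, an established human colon cancer line with high Wnt signaling, carried a doxycycline-inducible, FLAG-tagged dominant negative TCF1E (dnTCF1E), which occupies TCF sites but cannot bind β-catenin. The protein was either wild-type (dnTCF1EWT) or carried a C-clamp substitution that abolishes DNA binding by that domain (dnTCF1Emut). Both lines were sampled at 0, 2 and 9 h of 1 µg/mL doxycycline, with precipitation by anti-FLAG beads and 1 list per condition. Each protein was expressed from its own clonal line, so the protein and the line cannot be told apart, and according to the study's methods the duplicates of a condition were pooled before peaks were called. With 1 list per condition there is no replicate spread, and no difference between lists was tested.

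In the canonical pathway a Wnt ligand engages a Frizzled receptor and an LRP5 or LRP6 co-receptor, which inactivates the complex of Axin, APC, GSK3 and casein kinase 1 that marks β-catenin for destruction. β-catenin then enters the nucleus, binds LEF/TCF factors and displaces the TLE (Groucho) corepressors. The HMG box of TCF1 recognizes the Wnt response element (WRE), here CTTTG followed by A or T at both of the next bases and then by C or G, and the C-clamp recognizes the Helper site, here A or G followed by CCGCC. The short Helper site is A or G followed by CCG, so every Helper site also holds a short one. In colon cancer cells such as DLD-1 the destruction complex is crippled and β-catenin-LEF/TCF complexes are active without added ligand.

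The TLE family carried several of the highest peak scores among these genes, and the promoters of 3 of its members are shown because a peak lay at the promoter (TLE2 and TLE3) or close downstream of the start (TLE4). The sequences are the 250 bases before the RefSeq start on the strand of the gene, in GRCh38.p14, with matches to the WRE or the Helper site on either strand in capitals. The TLE4 window lies at chr9:79572927-79573176 on the plus strand, TLE2 at chr19:3029281-3029530 and TLE3 at chr15:70096753-70097002 on the minus strand. The peaks are placed on hg19, a different build, so they were not located within these windows. RefSeq gave 2 starts for TLE4, 2 for TLE2 and 3 for TLE3, and for each gene the window with the most matches is shown, which need not be the start nearest the peak. The other windows held no WRE, and of them only the second TLE4 window held a Helper site.
TLE4: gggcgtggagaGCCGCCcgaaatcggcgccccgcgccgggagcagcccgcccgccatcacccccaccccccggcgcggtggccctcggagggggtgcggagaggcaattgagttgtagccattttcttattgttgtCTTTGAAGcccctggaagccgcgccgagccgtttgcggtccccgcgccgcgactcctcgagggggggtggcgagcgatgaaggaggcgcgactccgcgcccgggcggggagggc
TLE2: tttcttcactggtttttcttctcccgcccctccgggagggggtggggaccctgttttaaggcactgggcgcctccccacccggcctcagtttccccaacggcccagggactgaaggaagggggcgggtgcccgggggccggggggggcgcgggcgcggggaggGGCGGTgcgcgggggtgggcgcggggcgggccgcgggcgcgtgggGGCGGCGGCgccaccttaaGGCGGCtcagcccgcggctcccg
TLE3: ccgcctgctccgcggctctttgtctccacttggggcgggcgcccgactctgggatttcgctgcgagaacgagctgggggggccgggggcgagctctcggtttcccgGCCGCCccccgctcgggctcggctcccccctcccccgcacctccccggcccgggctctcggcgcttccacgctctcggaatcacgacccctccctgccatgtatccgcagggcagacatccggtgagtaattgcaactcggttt
The TLE4 window held 1 WRE, with its first base 114 bases before the start, and 1 Helper site. TLE2 held 4 Helper sites, some of which overlap, and TLE3 held 1, and neither held a WRE. Reference windows were matched for 38 of the 48 genes, 48 windows in all. Some genes gave more than 1 window, so the windows are not independent, although the interval treats them as if they were. A WRE was found in 1 of the 48 windows (2.08%, against 4.69% of the 22199 windows of protein-coding genes and 5.56% of all 35116) and a Helper site in 34 (70.8%, exact 95% interval 55.9 to 83.0%, against 44.2% and 35.9%). The Helper motif is rich in G and C, and the median GC content of the windows was 71.2% for the Wnt pathway genes and 62.0% for protein-coding genes. Its part in the difference was not tested. All 48 windows held a short Helper site, as did 83.1% of the protein-coding ones.

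Wnt pathway genes were listed most often after induction of dnTCF1EWT. In dnTCF1EWT cells 5 of the 48 genes had a peak at 0 h, 22 at 2 h and 27 at 9 h, and in dnTCF1Emut cells 1 had a peak at 0 h, 7 at 2 h and none at 9 h. The lists also differed in size, from 354 peaks for dnTCF1Emut at 9 h to 12996 for dnTCF1EWT at 9 h, and the number of reads behind each list is unknown. Among the top 1000 peaks of a list by score the order of the dnTCF1EWT times turned, with 8 genes at 2 h and 5 at 9 h. No count over all genes is given for this limit, so the turn is not set against a background.

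Set beside all genes, the Wnt pathway genes were listed more often in the dnTCF1EWT 2 h list. Of the 33 genes named in any list, 22 had a peak there (66.7%, exact 95% interval 48.2 to 82.0%), against 40.1% of the 10699 genes named in any list. Counted over all 48 genes the share was 45.8% (31.4 to 60.8%), against 17.3% of 20056 protein-coding RefSeq genes. The intervals cover counting error alone. The genes were chosen with earlier results of these data known, so the shares in each list describe this set only. The excess was not tested.

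At 9 h of dnTCF1EWT 27 of the 33 genes had a peak (81.8%, 64.5 to 93.0%), close to the 76.5% of all named genes. Over all 48 genes the share was 56.2% (41.2 to 70.5%), against 33.4% of protein-coding genes. The first of these shares was near its background and the second above it. The backgrounds differ both in whether genes without any peak are counted and in whether names other than protein-coding genes are, and these were not separated.

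The other 4 lists were shorter. In dnTCF1Emut cells at 2 h the share was 7 of 33 (21.2%, 8.98 to 38.9%), against 13.9% of all named genes, and 14.6% of 48 against 5.85% of protein-coding genes. In uninduced dnTCF1EWT cells it was 5 of 33 (15.2%), against 15.8%, and 10.4% of 48 against 6.74%. In uninduced dnTCF1Emut cells it was 1 of 33 (3.03%), against 5.57%, and 2.08% of 48 against 2.4%. The shares of named genes in uninduced cells were thus near or below their background. In the dnTCF1Emut 9 h list 0 of 48 genes had a peak, which allows a share of up to 6.25% by the limit of 3 counts and 7.40% by the exact interval, beside 3.08% of named genes and 1.23% of protein-coding genes. Absence of these genes from that list was therefore not distinguishable from its background.

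A peak in any list was found for 11 of the 14 receptors, 11 of the 17 transducers, 8 of the 14 ligands and all 3 secreted inhibitors. Of the receptors, 11 had a peak in the dnTCF1EWT 9 h list and 8 in the 2 h list, with 23 and 11 peaks. Among the 17 transducers, 8 were listed at each of the 2 h and 9 h time points, with 12 peaks at 2 h and 19 at 9 h, but not the same 8 genes. Ligands had 4 genes at 2 h and 6 at 9 h out of 14, and of the 3 secreted inhibitors 2 were listed at each time. In the dnTCF1Emut 2 h list there was 1 ligand (WNT16), 2 receptors (FZD5 and FZD7), 3 transducers (CTNNB1, TLE1 and TLE4) and 1 inhibitor (WIF1). All 7 of these genes also had a peak in the dnTCF1EWT 2 h list, 5 of them an overlapping one, and FZD5 and TLE4 only at other sites. The matching share over all genes of the dnTCF1Emut 2 h list is not given here, so the 7 are not set against a background.

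No peak was listed for 15 genes. These were the ligands WNT2B, WNT4, WNT6, WNT7A, WNT7B and WNT9A, the Frizzled receptors FZD3, FZD4 and FZD10, the Dishevelled proteins DVL1, DVL2 and DVL3, which relay the signal from the receptor, and the β-catenin coactivators BCL9, BCL9L and PYGO2. All 3 Dishevelled genes and both BCL9 genes were thus without a peak, and all 4 TLE genes on the list had one. Over all genes, 8753 listed names matched protein-coding RefSeq genes, of which there are 20056. A gene without a peak in any list was therefore the more common case.

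**Figure D1:**
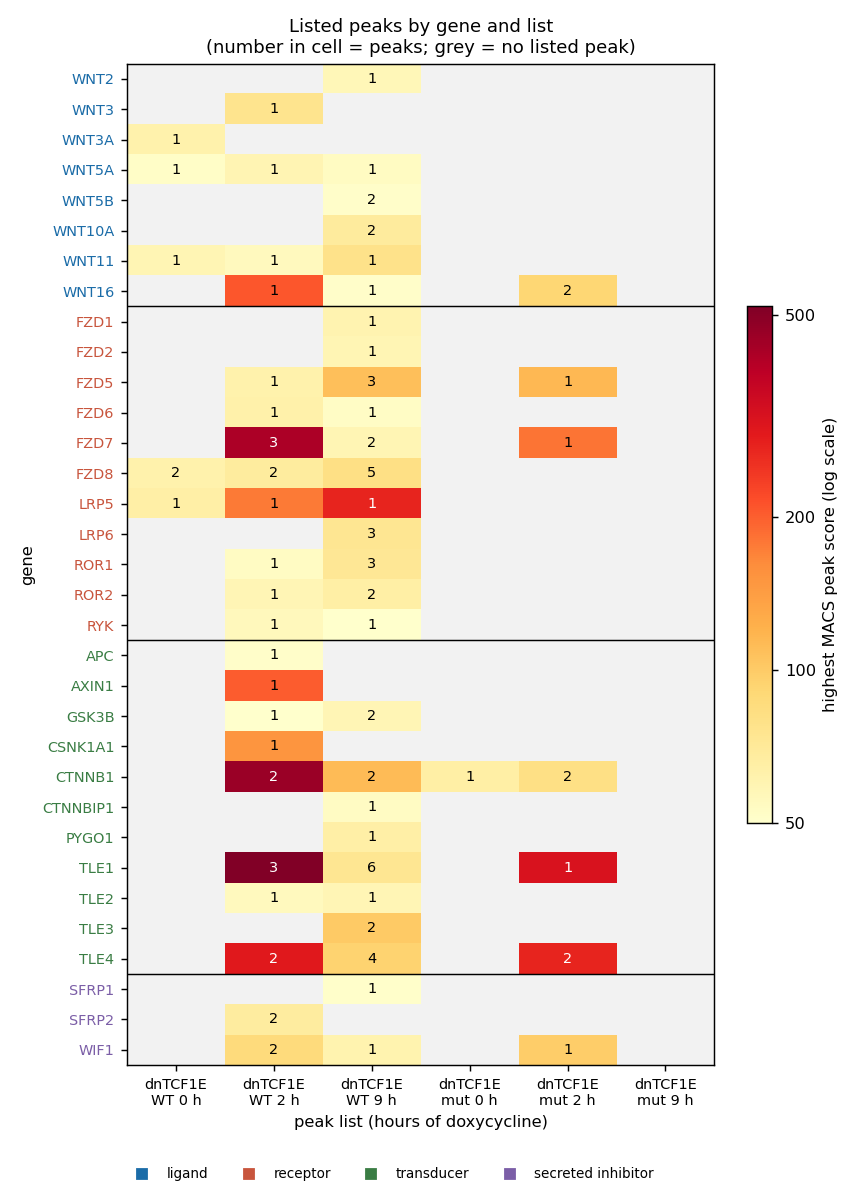
Rows are the 33 genes with a listed peak, colored by class, and columns are the 6 peak lists. The number in a cell counts the peaks and the shade gives the highest MACS peak score on a log scale. The dark cells for TLE1, TLE4, CTNNB1, FZD7 and LRP5 reach scores of 271.87 to 513.67, and the dnTCF1Emut 9 h column is empty.

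Peaks of the Wnt pathway genes fell mostly far from the TSS. Of the 100 peaks, 26 lay in the gene they were assigned to (introns, exons and promoters), 12 in another gene and 62 between genes. The median distance from the TSS was 40.0 kb in the dnTCF1EWT 2 h list (38.1 kb for all peaks of the list), 44.7 kb at 9 h (31.9 kb) and 71.6 kb in the dnTCF1Emut 2 h list (60.0 kb). Assignment to the nearest TSS gives a neighbor and was not a measure of regulation.

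Within 2 kb of the TSS lay 4 of 31 peaks in the dnTCF1EWT 2 h list (12.9%, 3.63 to 29.8%, against 5.96% of all peaks) and 4 of 52 at 9 h (7.69%, against 5.15%). None of the 10 dnTCF1Emut 2 h peaks did (2.66% of all). The close peaks belonged to 6 genes: TLE2, TLE3, TLE4, CSNK1A1, GSK3B and WIF1. No ligand or receptor had a peak that near.

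**Figure D2:**
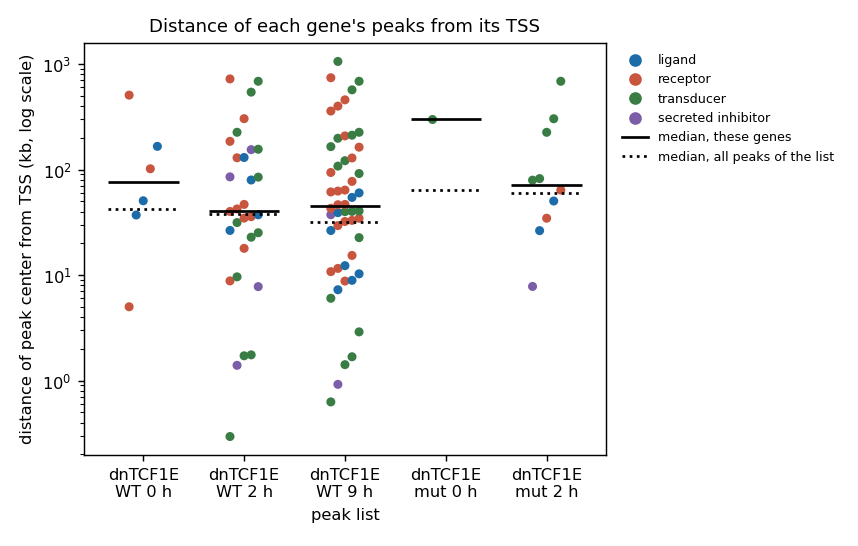
Each point is a peak of a Wnt pathway gene, placed by list (horizontal) and by the distance of its center from the TSS in kb on a log scale (vertical), with color for the class. Solid lines are medians of these genes and dotted lines medians of all peaks of the list. At 2 h of dnTCF1EWT both medians lie near 40.0 kb, and the points below 2 kb are transducers and a secreted inhibitor.

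Peak score, the MACS score that rises with the significance of a peak, was not scaled between libraries, so the strength of a peak was read mainly from its rank within its list. The median rank percentile of the peaks was 39.5 in the dnTCF1EWT 2 h list, 42.0 at 9 h and 39.6 in the dnTCF1Emut 2 h list, where 50 is the middle of a list and smaller is stronger. In the dnTCF1EWT 2 h list 10 of the 31 peaks, near 8 genes, were among the top 1000 of 5585. At 9 h 5 of 52 were among the top 1000 of 12996, and in the dnTCF1Emut 2 h list 7 of 10 among the top 1000 of 1883.

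The stronger and the weaker peaks of these genes differed in WRE matches, in repeats and in length. In the dnTCF1EWT 2 h list the 10 peaks among the top 1000 had scores of 145.21 to 513.67, of which 5 held a WRE and 2 lay in an annotated repeat. The other 21 had scores of 50.37 to 86.58, of which 2 held a WRE and 18 lay in a repeat, 12 of them in a SINE, the class of short interspersed elements that includes Alu. All peaks of that list showed the same contrast, with a WRE in 50.6% of the top 1000 and 8.83% of the rest, and a repeat under 25.7% and 83.7%. The 10 stronger peaks near Wnt pathway genes were 336 to 767 bp long and the other 21 were 126 to 407 bp. The part of length in the WRE counts was not tested.

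At 9 h the 47 weaker peaks near Wnt pathway genes lay in a SINE in 37 cases (78.7%, against 80.1% of all weaker peaks of the list), and none of the 5 in the top 1000 did (30.1% of all). A WRE was present in 4 of those 5 and in 3 of the 47, against 33.6% and 4.30% over all peaks. All 6 peaks of uninduced dnTCF1EWT cells lay in repeats, 5 of them in SINEs, beside 88.6% and 53.3% of all peaks of that list. No dnTCF1Emut 2 h peak near these genes lay in a SINE (2.81% of all). The part of repeats in which genes were listed was not tested.

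Motif shares over all peaks of a list are given with their exact 95% intervals. A WRE was present in 7 of 31 peaks at 2 h of dnTCF1EWT (22.6%, 9.59 to 41.1%, against 16.3% of all), in 7 of 52 at 9 h (13.5%, 5.59 to 25.8%, against 6.56%) and in 4 of 10 in the dnTCF1Emut 2 h list (40%, against 36.0%). All 3 intervals include the share of all peaks. Short Helper sites were in 45.2%, 59.6% and 50% of the peaks (54.1%, 55.4% and 38.9% of all), and Helper sites in 9.68%, 7.69% and 10% (7.23%, 4.83% and 4.35%). With 10 to 52 peaks a list, differences of these sizes were within counting error. Lengths were not matched: the medians were 208, 197.5 and 515.5 bp (187, 171 and 452 bp for all). Per kb of peak, the mean number of WREs was 0.671, 0.637 and 0.883 (0.664, 0.330 and 1.18 for all). Short Helper sites came to 3.67, 4.63 and 1.15 per kb (4.65, 5.01 and 1.52), and Helper sites to 0.223, 0.350 and 0.143 (0.409, 0.330 and 0.102). Some directions thus differed from those of the shares.

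**Figure D3:**
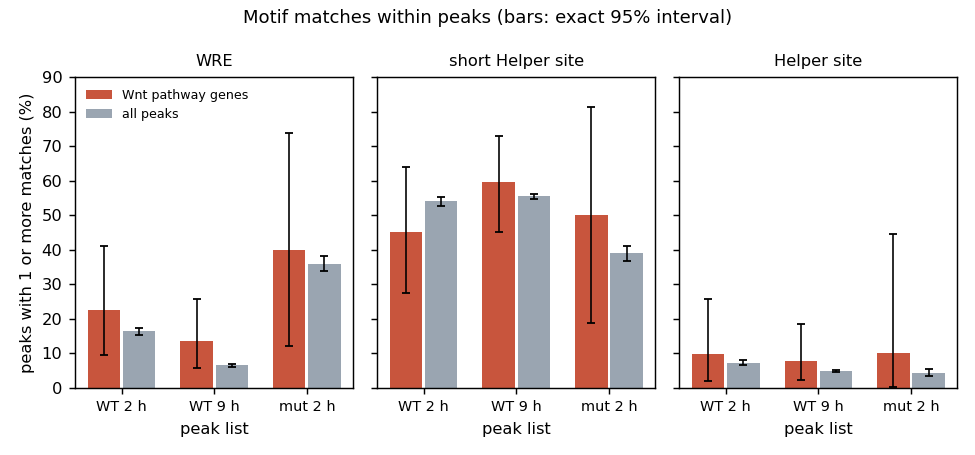
Percent of peaks with 1 or more matches to the WRE, the short Helper site and the Helper site, in the dnTCF1EWT 2 h, dnTCF1EWT 9 h and dnTCF1Emut 2 h lists. Red bars are peaks of Wnt pathway genes (31, 52 and 10), grey bars all peaks of the list, and error bars exact 95% intervals. Each red interval includes the grey share beside it.

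Among the ligands, WNT16 carried the strongest peak. It lay 26.5 kb upstream of the WNT16 TSS, between genes, at chr7:120938743-120939140 of hg19. Its score was 207.53 (rank 386) at 2 h of dnTCF1EWT, 51.05 (rank 11468) at 9 h and 90.87 (rank 785) at 2 h of dnTCF1Emut. The site was thus near the top of the first list and near the floor of the second. It held no WRE in any of the lists, and a single short Helper site only within the wider dnTCF1Emut peak. A further dnTCF1Emut 2 h peak lay 50.3 kb upstream, in an intron of CPED1, with a score of 63.27.

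WNT5A and WNT11, ligands mostly linked to β-catenin-independent signaling, each had 1 peak at 0, 2 and 9 h of dnTCF1EWT, but at different places each time. The WNT5A scores were 51.79, 59.36 and 53.49 and the peaks lay 50.6 and 37.2 kb downstream and 12.3 kb upstream of the TSS. The WNT11 scores were 58.56, 54.79 and 78.06, at 166, 130 and 60.1 kb downstream, the first and second in introns of UVRAG. None of these 6 peaks held a WRE, and 5 of them lay in SINEs. WNT3A, a canonical ligand, was listed only in uninduced cells, with a score of 62.02 in an intron of its own gene.

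FZD7, a Frizzled receptor used by intestinal stem cells, had the highest-scoring peak of the receptors. It lay between genes 34.7 kb downstream of the TSS at chr2:202933631-202934329 (hg19). The score was 418.49 (rank 134) at 2 h of dnTCF1EWT, 58.6 (rank 5420) at 9 h and 181.14 (rank 220) at 2 h of dnTCF1Emut. A Helper site was present in all 3 versions of the peak and a WRE in none. A second dnTCF1EWT 2 h peak beside it, 35.8 kb downstream, scored 145.21 without any of the motifs and was in no other list. Weaker FZD7 peaks lay 40.0 kb upstream at 2 h (86.58) and 93.8 kb downstream at 9 h (51.1).

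LRP5, a co-receptor for Wnt ligands, was the exception in time among the sites listed at both 2 and 9 h of dnTCF1EWT. Its peak in an intron of LRP5, 8.8 kb from the TSS at chr11:68088714-68089110 (hg19), scored 175.75 (rank 469) at 2 h of dnTCF1EWT and 271.87 (rank 82) at 9 h. It was the strongest peak of any Wnt pathway gene at 9 h and was in no dnTCF1Emut list. It held 1 WRE, 6 short Helper sites and 1 Helper site at both times. A separate peak 5007 bp upstream of LRP5 was listed in uninduced dnTCF1EWT cells (64.5) and in no induced list. The related co-receptor gene LRP6 had 3 peaks at 9 h only.

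FZD5, a Frizzled receptor of the intestinal epithelium, had a peak 63.9 kb upstream in an intron of PLEKHM3 (chr2:208697871-208698181, hg19). It scored 109.04 (rank 448) at 9 h of dnTCF1EWT and 114.74 (rank 540) at 2 h of dnTCF1Emut and was not listed at 2 h of dnTCF1EWT, where the only FZD5 peak (62.07) lay 46.7 kb upstream in a SINE. FZD8 had the most peaks of the receptors, 9 in all, 2 of them in uninduced cells. They lay 102 to 741 kb upstream between genes, scored 50.33 to 81.1, and did not overlap each other.

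Of the destruction complex genes among the 48, AXIN1, CSNK1A1 and APC had 1 peak each, at 2 h of dnTCF1EWT only. GSK3B had 1 peak at 2 h and 2 at 9 h. AXIN2, one of the other pathway genes counted below, was listed at 0, 2 and 9 h of dnTCF1EWT. AXIN1, the scaffold of the complex, had a peak in an intron of AXIN1, 25.2 kb from the TSS at chr16:377280-377713 (hg19), with a score of 201.34 (rank 405), 6 short Helper sites, no WRE and a GC content of 58.1%. CSNK1A1, the casein kinase that primes β-catenin for degradation, had an intronic peak 1.72 kb from the TSS with a score of 150.16 (rank 574), 1 WRE, 4 short Helper sites and 1 Helper site. Neither was in any other list. APC, the tumor suppressor that is truncated in most colon cancers, had a single weak peak (51.39) in a SINE of its own intron.

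GSK3B, the kinase that phosphorylates β-catenin, had weak peaks only. At 9 h of dnTCF1EWT they lay 1416 bp upstream of the TSS (score 53.81, no WRE) and 22.6 kb upstream (58.39, 2 WREs). At 2 h the peak lay 22.8 kb upstream (50.37, 1 WRE) and adjoined the latter without overlapping it.

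CTNNB1, which encodes β-catenin, was assigned a strong peak 225 kb downstream of its TSS. The peak lay in an intron of ULK4, at chr3:41465998-41466764 (hg19), and held 2 WREs and no short Helper site. It scored 455.19 (rank 108) at 2 h of dnTCF1EWT, 112.07 (rank 416) at 9 h and 72.86 (rank 1094) at 2 h of dnTCF1Emut. Within CTNNB1 itself the only peak was a weak intronic one at 2 h of dnTCF1EWT (52.03). CTNNBIP1, an inhibitor that keeps β-catenin from TCF factors, had a weak peak 2895 bp upstream of its TSS at 9 h (53.07).

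A further CTNNB1 peak, 303 kb upstream, was of another kind. It was listed only in dnTCF1Emut cells, at 0 h (64.81) and 2 h (81.11), in a simple repeat with a GC content of 15.9% and 9.5% over the respective peaks, and held none of the motifs. It was the only site of a Wnt pathway gene shared by an induced and an uninduced list. Of all dnTCF1Emut 2 h peaks, 17.3% overlapped a peak of uninduced dnTCF1Emut cells, and of the 10 near Wnt pathway genes 1 did.

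TLE1, a corepressor recruited by TCF factors, had the highest score of all the Wnt pathway genes. The peak lay between genes, 686 kb downstream of the TSS at chr9:83617057-83617579 (hg19), in an LTR element, and held 1 WRE. It scored 513.67 (rank 91) at 2 h of dnTCF1EWT, 68.35 (rank 2444) at 9 h and 313.63 (rank 56) at 2 h of dnTCF1Emut. A second dnTCF1EWT 2 h peak 541 kb downstream scored 147.72 with 1 WRE and was in no other list. At 9 h TLE1 had 6 peaks, more than any other Wnt pathway gene, of which 5 lay in SINEs.

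TLE4 had peaks in the lists of both proteins, at different sites. The dnTCF1EWT peak lay 1.75 kb downstream of the TSS at chr9:82188386-82188876 (hg19), annotated to an exon of TLE4, with 3 short Helper sites and no WRE. It scored 294.76 (rank 229) at 2 h and 73.22 (rank 1692) at 9 h and was in no dnTCF1Emut list. The dnTCF1Emut 2 h peaks lay 82.1 kb upstream (score 271.64, rank 82, 1 WRE) and 79.3 kb upstream (63.35), where dnTCF1EWT had no listed peak. A distal TLE4 peak 569 kb downstream at 9 h of dnTCF1EWT scored 93.63 (rank 687) with 1 WRE.

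TLE3 and TLE2 were the TLE genes with peaks annotated as promoter. The TLE3 peak, 628 bp upstream of the TSS, was listed at 9 h of dnTCF1EWT only, with a score of 100.37 (rank 561), 2 WREs, 3 short Helper sites and 1 Helper site. The TLE2 peak, 295 bp upstream, was listed at 2 h only, with a score of 54.79 (rank 3690) and no motif. A weak TLE2 peak (57.91) lay in an intron 6.03 kb downstream at 9 h.

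WIF1, which binds Wnt ligands outside the cell, had a site 7.8 kb from its TSS, in an intron of WIF1 at chr12:65507371-65507777 (hg19). It held 1 WRE and scored 85.97 (rank 1108) at 2 h of dnTCF1EWT and 97.72 (rank 708) at 2 h of dnTCF1Emut. Nearer to the TSS, dnTCF1EWT peaks without a WRE lay 1395 bp upstream at 2 h (54.08) and 921 bp upstream at 9 h (61.01). SFRP1 and SFRP2, secreted decoys for Wnt ligands, had 1 peak at 9 h (50.48) and 2 at 2 h (67.04 and 54.49).

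The remaining 15 genes with a peak held 27 peaks, none of them in the top 1000 of an induced list. Their scores were 50.33 to 76.04 and the peaks lay 7.26 to 208 kb from the TSS. A WRE was present in 1 of them, a short Helper site in 13 and a Helper site in none. They included the ligands WNT2, WNT3, WNT5B and WNT10A, the receptors FZD1, FZD2, FZD6 and LRP6, the receptor tyrosine kinases and kinase-like receptors ROR1, ROR2 and RYK, and the coactivator PYGO1, beside APC, SFRP1 and SFRP2.

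Overlap between lists was the exception. Merged by any overlap, the 100 peaks made 87 sites, of which 78 were in 1 list, 5 in 2 and 4 in 3. Of the 31 dnTCF1EWT 2 h peaks, 6 overlapped a 9 h peak (19.4%, against 14.9% of all). A dnTCF1Emut 2 h peak overlapped 5 of them (16.1%, against 9.44%). Of the 10 dnTCF1Emut 2 h peaks, 5 overlapped a dnTCF1EWT 2 h peak (50%, against 27.9%) and 5 a 9 h peak (50%, against 13.6%). Overlap was thus uncommon over all peaks too, and the differences were not tested. Of the 17 genes with peaks at both 2 and 9 h of dnTCF1EWT, 6 had them at the same site (35.3%, 14.2 to 61.7%): WNT16, FZD7, LRP5, CTNNB1, TLE1 and TLE4. Over all genes it was 761 of 2642 (28.8%). A gene listed at both times was thus, more often than not, listed for different sites. No peak of an induced dnTCF1EWT list near these genes overlapped one of an uninduced list. Such overlap was rare over all peaks too. With the uninduced dnTCF1EWT list it was 1.40% of 5585 peaks at 2 h and 1.24% of 12996 at 9 h. With the uninduced dnTCF1Emut list it was 0.286% and 0.0769%.

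At the 6 sites shared by 2 and 9 h of dnTCF1EWT, the score was higher at 2 h in 5, against 66.1% of all peaks so shared. LRP5 was the exception. The log2 ratio of the 2 h to the 9 h score ranged from −0.63 for LRP5 to 2.91 for TLE1, with a median of 2.02, beside 0.33 over all 833 dnTCF1EWT 2 h peaks so shared. The 6 sites ranked 91 to 469 at 2 h, whereas the 833 peaks were taken at any score. The 2 medians are therefore not matched for score. Dividing the scores of separately called libraries gives no ratio of binding, and the depth of each library is unknown. At the 5 sites shared by dnTCF1EWT and dnTCF1Emut at 2 h, the score was higher for dnTCF1EWT in 4 (CTNNB1 2.64, FZD7 1.21, WNT16 1.19 and TLE1 0.71 on the log2 scale) and lower for WIF1 (−0.18). The median was 1.19, beside 0.45 over all 527 peaks so shared, again taken at any score. Of those 527 peaks, 63.6% scored higher for dnTCF1EWT. With 5 and 6 sites, no difference from the shares over all peaks was tested.

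**Figure D4:**
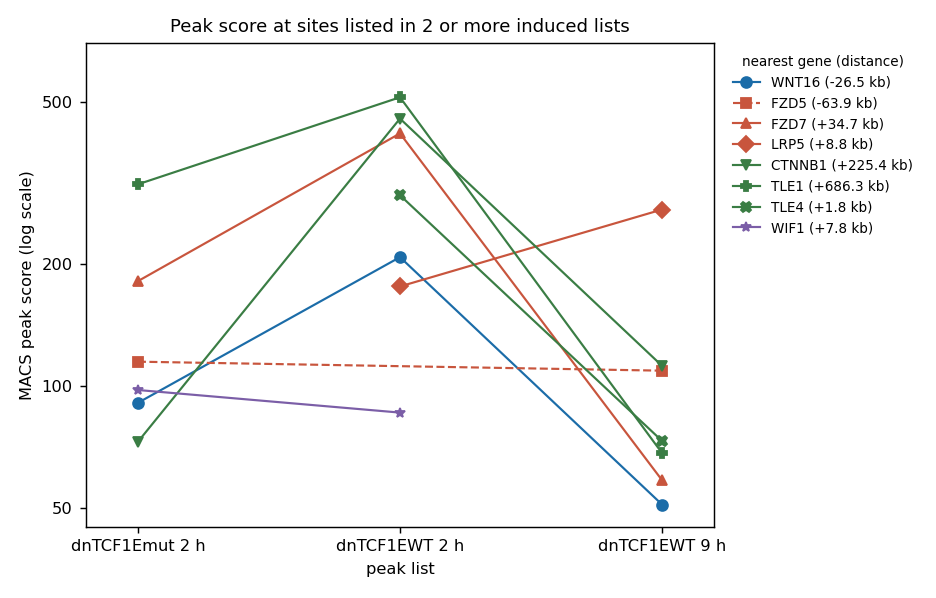
MACS peak score (log scale) in the dnTCF1Emut 2 h, dnTCF1EWT 2 h and dnTCF1EWT 9 h lists for the 8 sites listed in 2 or more of them, labeled by nearest gene and distance from its TSS. Lines join scores of 1 site, and the dashed line passes a list in which the FZD5 site is absent. Of the 6 sites with a score at both 2 and 9 h of dnTCF1EWT, LRP5 alone rises, from 175.75 to 271.87.

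The 10 top-1000 peaks of the dnTCF1EWT 2 h list were divided by whether a dnTCF1Emut 2 h peak overlapped them. The 4 that were overlapped (TLE1, CTNNB1, FZD7 and WNT16) held 1, 0, 2 and 0 short Helper sites and had GC contents of 34.2 to 44.4%. The 6 that were not (TLE4, AXIN1, LRP5, CSNK1A1 and second sites of TLE1 and FZD7) held 3, 6, 6, 4, 0 and 0, at GC contents of 41.6 to 58.1%. At least 3 short Helper sites were thus present in 0 of 4 and in 4 of 6. Over all top-1000 peaks the shares were 17.6% of the 375 overlapped and 41.8% of the 625 not overlapped. GC content moved with the count of this GC-rich motif, with medians of 41.4% and 47.0% over all top-1000 peaks, and its part was not tested.

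**Figure D5:**
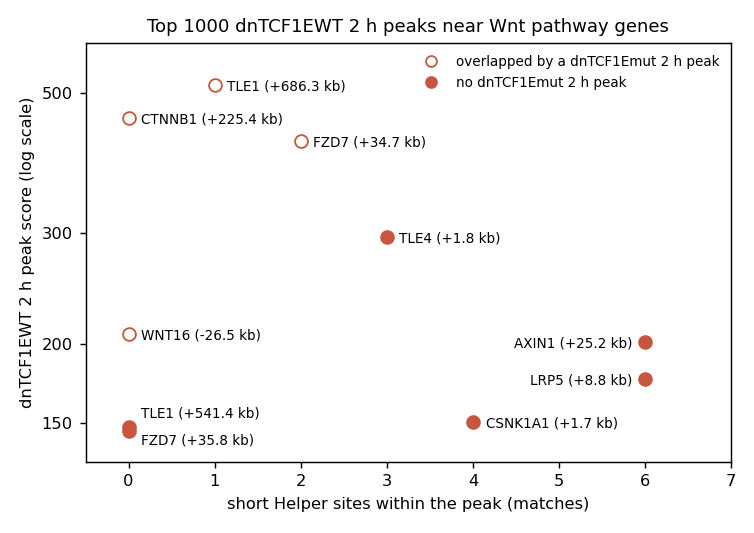
The 10 dnTCF1EWT 2 h peaks of Wnt pathway genes that ranked in the top 1000, by number of short Helper sites (horizontal) and peak score on a log scale (vertical). Open circles were overlapped by a dnTCF1Emut 2 h peak and filled circles were not. The 4 peaks with 3 or more short Helper sites (TLE4, AXIN1, LRP5 and CSNK1A1) are all filled, and the 3 highest scores are all open.

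Another 60 genes of the pathway, among them LEF/TCF factors, Dickkopf and R-spondin genes and their receptors, were counted in the same way. A peak in any list was assigned to 41 of them. They numbered 10 (16.7%) at 0 h, 24 (40%) at 2 h and 27 (45%) at 9 h of dnTCF1EWT. The shares of protein-coding genes were 6.74%, 17.3% and 33.4%. In the dnTCF1Emut lists they numbered 1 (1.67%), 7 (11.7%) and 3 (5%), against 2.4%, 5.85% and 1.23%. The 48 genes described here stood at 5 (10.4%), 22 (45.8%), 27 (56.2%), 1 (2.08%), 7 (14.6%) and 0.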

How the data were processed

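FLAG ChIP-seq was measured in 6 conditions; the 2 input samples were not used here. The submitters' processing notes name CASAVA 1.8.2, Bowtie2 2.0.0, MACS 1.3, HOMER 3.16 and hg19. Per the study's methods the authors pooled duplicates before calling peaks, and the command lines in the file headers name a folder for both. The sample labels call most libraries a first replicate but list an (a) and a (b) for each ChIP condition, so pooling was not checked from the files. The authors deposited 1 annotated list per condition. The deposited score is the MACS peak score, which is not scaled for depth. The GC content deposited by the authors is a fraction, printed here as a percent. The deposited number of motif matches is a count within each peak, with the distance of the peak center to its nearest TSS beside it. The peak coordinates of all 6 deposited BED files equalled those of the annotation. Reads per list, and so the depth, are unknown.

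A gene counted as listed when it was named for at least 1 peak. All 48 names matched RefSeq genes. Peaks were ranked by score within each list, overlap meant any shared base, and intervals are exact (Clopper-Pearson, 95%) and cover counting error only. With 1 list per condition no test was run. Genes were described singly if a peak lay within 5 kb of the TSS or ranked in the top 1000 of an induced list, if it was shared between induced lists, or if it was listed in uninduced cells. The genes, their classes and the other pathway genes were chosen with earlier results of these data known. Alternatives were score thresholds, the top 1000 peaks, distance limits, 50% overlap, other denominators and, chosen after seeing the data, a GC limit of 15%. Promoter windows came from RefSeq (GRCh38.p14). The counting and overlap steps were tested on simulated data. Python 3.11.15, pandas 2.3.3, NumPy 2.4.6, SciPy 1.17.1 and matplotlib 3.10.9 were used.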

Additional observations from a re-analysis of the deposited data

How the results depend on the processing

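No paired analysis was possible because each condition has 1 pooled list, and for the same reason no replicate could be left out. Of 121 alternative values 92 stayed within the range set for them (1.5 times for a count, the exact interval for a share). The 29 others were mainly numbers of listed genes under stricter limits. Above a score of 67, 0 genes were left in uninduced dnTCF1EWT cells, 12 at 2 h and 11 at 9 h of dnTCF1EWT, and 0 in uninduced dnTCF1Emut cells. At scores of 100 or more the numbers were 0, 8, 4 and 0, and 4 for dnTCF1Emut at 2 h. Among the top 1000 peaks they were 8 at 2 h and 5 at 9 h of dnTCF1EWT. The order of the 2 times, 22 genes at 2 h and 27 at 9 h over all peaks, thus turned under each of these 3 limits. Counts over all genes are not given for these limits, so whether the turn is particular to these genes is unknown. Within 100 kb of the TSS, 3 genes stayed in uninduced dnTCF1EWT and 0 in uninduced dnTCF1Emut cells, and within 50 kb 2 and 0, with 3 for dnTCF1Emut at 2 h. Over all 48 genes the shares were 45.8% at 2 h and 56.2% at 9 h of dnTCF1EWT. Among the top 1000 at 2 h, a WRE was in 50% and a Helper site in 30% of 10 peaks (50.6% and 19.3% of all). At 9 h they were in 80% and 40% of 5 peaks (33.6% and 17.2% of all), of which 20% lay within 2 kb. Above a score of 67 the 9 h shares with a WRE and a Helper site were 33.3% and 20%. By the HOMER promoter annotation 3.23% of 2 h peaks were at a promoter. With an overlap of 50% of both peaks, 3 of the dnTCF1EWT 2 h peaks were shared with 9 h and 2 of the dnTCF1Emut 2 h peaks with dnTCF1EWT 9 h (3 with scores above 67). Depth, the replicate spread and the input signal are unknown here, which limits every comparison of scores between lists.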

Other observations

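Score ties were frequent at the weak end of the dnTCF1EWT 9 h list. A score of 51.1 was shared by 715 of its 12996 peaks, 4 of them near Wnt pathway genes (WNT10A, FZD7 and both WNT5B peaks), so ranks there separate little. A score of at most 67 was held by 71.2% of the 9 h peaks of Wnt pathway genes and 79.6% of all, and by 51.6% and 67.7% at 2 h.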
